A study of Mus musculus with 6 samples.

Results

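The Pparg locus (gene ID 19016) was defined as the Pparg gene of the mouse together with 100 kb on either side, and its members were the ATAC-seq peaks whose summit lay in that window. The gene spans chr6:115360879-115490404 of mm10 and the window chr6:115260879-115590404. Peaks of the 6 libraries that shared at least 1 bp were merged into elements. The locus held 27 elements made of 66 peaks, out of 68913 elements over all chromosomes used. ATAC-seq marks open chromatin through a transposase that inserts sequencing adapters into accessible DNA. The libraries came from mouse brown pre-adipocytes, the precursors of brown fat cells, labelled as cell line BAT. The 3 day 0 libraries are labelled as WT, and the 3 day 1 libraries are labelled only by a day of brown adipocyte differentiation. The labels name neither the differentiation agents nor separate cultures, so each p-value reflects only how these libraries vary, in part perhaps for technical reasons. The title of the series concerns deletion of RUNX1 or RUNX2, and no sample with such a deletion was analysed here.

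Depth and list length moved with the day. Day 0 libraries held 8127635 to 11011889 fragments and 39211 to 55511 peaks, and day 1 libraries held 4919755 to 7302457 fragments and 12556 to 23274 peaks. Day 1 replicate 3 stood apart, with the most fragments of its day and the shortest list. The pileup of a peak is the number of fragments over its summit, and it is given below in FPM, that is, scaled to 1000000 fragments of the library. The median summit pileup of that library over the 9136 regions listed in all 6 libraries was 1.78 FPM, against 2.62 to 3.94 in the other libraries. The lowest pileup in any list was 4 or 5 fragments, which is 0.454 to 0.813 FPM, so an element with no listed peak may still have signal near or under that level. A pileup of 5 fragments has an exact Poisson 95% interval from 1.62 to 11.7, which covers counting error only. Elements are named by the distance in kb of their strongest summit from the first annotated Pparg start, counted along transcription.

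Pparg encodes PPARγ, a nuclear receptor that binds DNA as a dimer with a retinoid X receptor and switches on genes of lipid storage. It is required for the formation of both white and brown fat cells. The gene is known to be read from alternative promoters, of which a downstream one gives the adipocyte isoform PPARγ2 and an upstream one the more widely expressed PPARγ1. Early in differentiation C/EBPβ and C/EBPδ, glucocorticoid receptor and other factors are known to act on Pparg through its promoters and through distant enhancers.

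The RefSeq promoter table (GRCm38.p6, the assembly of mm10) gives 3 starts of Pparg, at 115361144, 115362349 and 115422066 on the plus strand, and does not name the isoform of each. The 250 bases before the second and the third start and before the start of the lncRNA gene Gm36301 are shown because the listed elements separate them. The second Pparg start lay in an element of both days, the third in none, and the Gm36301 start lay in an element that was high in 2 of 3 day 1 libraries. Capitals mark AGGTCA, a nuclear receptor half-site, in the first sequence, TTNNGNAA, a C/EBP motif, in the second, and TGNGGT, a RUNX motif, in the third, each searched on both strands.
Pparg start 2, chr6:115362099-115362348, plus strand: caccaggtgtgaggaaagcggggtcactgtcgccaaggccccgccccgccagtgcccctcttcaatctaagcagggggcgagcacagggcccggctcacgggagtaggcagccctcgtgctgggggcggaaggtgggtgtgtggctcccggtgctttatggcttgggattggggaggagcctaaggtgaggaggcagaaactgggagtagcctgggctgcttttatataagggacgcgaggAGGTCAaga
Pparg start 3, chr6:115421816-115422065, plus strand: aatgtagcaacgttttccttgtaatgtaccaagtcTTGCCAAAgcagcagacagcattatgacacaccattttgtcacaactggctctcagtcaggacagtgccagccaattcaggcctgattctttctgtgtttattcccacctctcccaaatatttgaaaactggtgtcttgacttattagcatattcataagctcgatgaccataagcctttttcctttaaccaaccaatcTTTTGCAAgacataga
Gm36301, chr6:115519502-115519751, minus strand: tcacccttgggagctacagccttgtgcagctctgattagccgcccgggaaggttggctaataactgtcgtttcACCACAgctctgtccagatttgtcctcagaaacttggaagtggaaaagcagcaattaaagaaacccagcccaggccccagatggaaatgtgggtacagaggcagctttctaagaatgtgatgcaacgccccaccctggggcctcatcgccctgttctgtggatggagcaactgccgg
The AGGTCA match began 9 bases before the second Pparg start, the stretch before the first start held 1 match at 28 bases, and 14.0% of 32817 promoter stretches of the same length held that motif. The C/EBP letters matched at 215 and 16 bases before the third start and were present in 36.8% of all stretches. The RUNX letters matched once before Gm36301, at 177 bases, against 40.1% of all stretches, and in none of the 3 Pparg stretches. AP-1 (TGANTCA) and glucocorticoid receptor (ACANNNTGT) letters matched in none of these 4 stretches, against 6.75% and 5.84% of all. The EBF letters CCCNNGGG matched at 2 places before Gm36301, which are palindromic, against 11.8% of all stretches. The KLF letters CACCC matched at 4 places before the first Pparg start, 1 before the second, 0 before the third and 2 before Gm36301, against 52.0% of all. These motifs overlap in part with other factors' motifs, and a match describes letters only. The GC content was 82.4% before the first, 63.6% before the second and 40.8% before the third Pparg start, against a median of 52.4% over all stretches.

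The highest elements of the locus differed between the days, while 5 elements had a peak on both days but not in every library, and 1 had a peak in all 6 libraries. Of the day 0 only elements, those with the highest day 0 means lay at −76.8 kb and in the downstream part of the gene body. At day 1 the highest peaks lay in a stretch of 12.0 kb beyond the gene, from 21.3 to 32.9 kb past its end. Of the 27 elements, 9 lay before the gene, 10 inside it and 8 beyond it. Exon and intron boundaries were not used here.

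**Figure D1:**
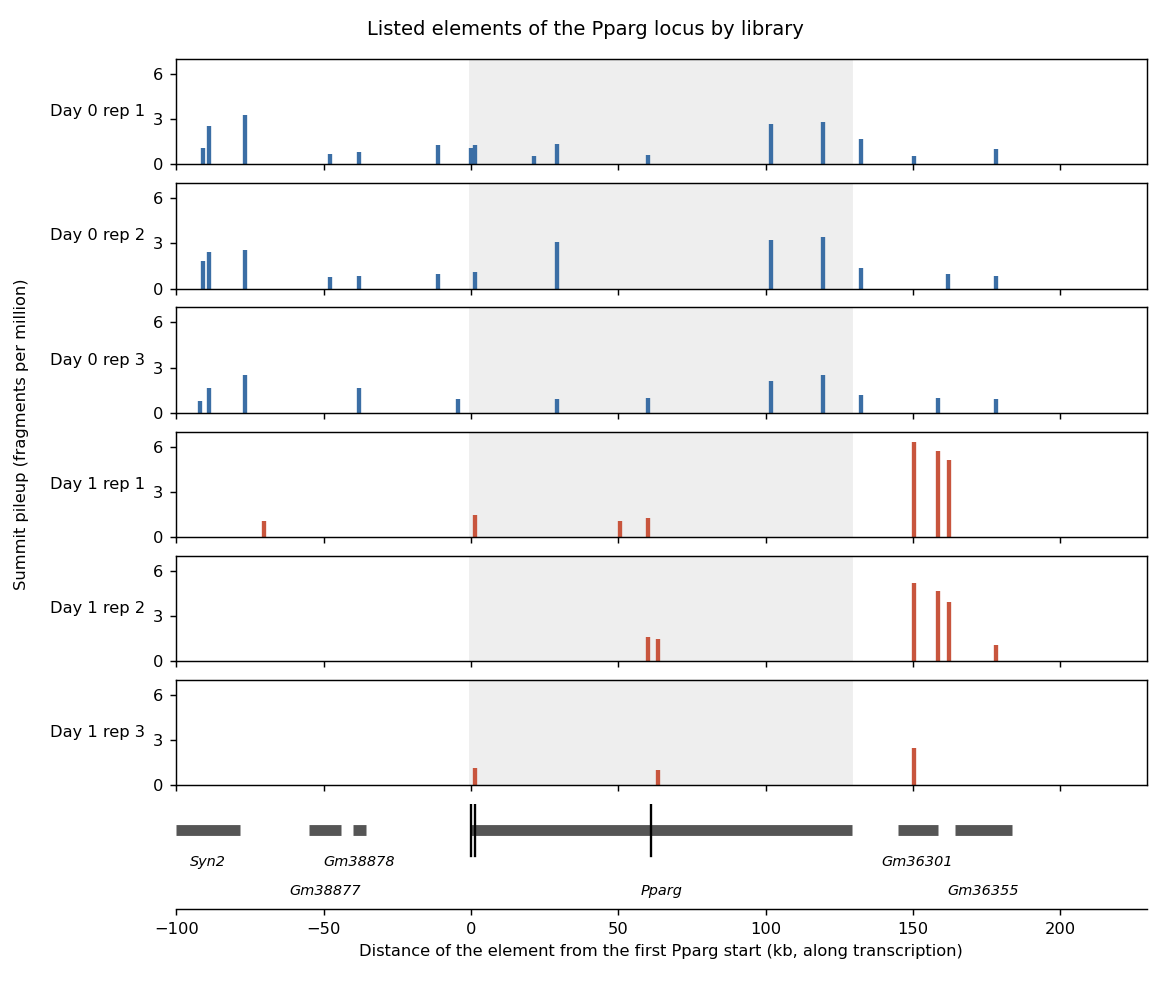
Summit pileup (FPM, vertical axis) of 25 of the 27 elements in the 6 libraries against the distance in kb from the first Pparg start, with the Pparg span shaded, annotated genes as bars under the tracks and the 3 Pparg starts as black ticks. Day 0 tracks (blue) carry peaks before and inside the gene, and day 1 tracks (red) carry their tallest peaks between +150.5 and +162.2 kb.

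The start sites themselves were listed weakly. The element at the second start (+1.2 kb, chr6:115362222-115362513, summit 0.023 kb before that start) had 1.27 and 1.11 FPM in day 0 replicates 1 and 2 and no peak in replicate 3. At day 1 it had 1.42 and 1.10 in replicates 1 and 3 and no peak in replicate 2. The ranges of the days overlapped, and each day had 2 of 3 libraries with a peak. It ranked low in each list: between 15.1% and 40.7% of a library's peaks had a lower pileup. The first start had a peak only in day 0 replicate 1 (+0.1 kb, 1.09 FPM), and that library also listed a peak at +0.7 kb (0.817 FPM).

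The third start had no peak within the 250 bases before it in any library, but an element lay 1.03 kb before it (+59.9 kb, chr6:115420966-115421266). Its pileup was 0.636 and 0.983 FPM in day 0 replicates 1 and 3 and 1.22 and 1.61 in day 1 replicates 1 and 2. The 2 other libraries had no peak there, and the listed day 1 values lay above the listed day 0 values. An element 2.67 kb after the third start (+63.6 kb, chr6:115424550-115424758) was listed at 1.43 and 0.959 FPM in day 1 replicates 2 and 3 and in no day 0 library. Both elements near the third start were low, with 6 to 9 fragments over the summit in each library that listed them.

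Inside the gene, the elements at +101.9 and +119.4 kb had the highest day 0 means. The +101.9 kb element (chr6:115462783-115463444) had 2.72, 3.20 and 2.07 FPM in day 0 replicates 1, 2 and 3 and no peak at day 1. The +119.4 kb element (chr6:115480046-115480784), near the end of the gene, had 2.82, 3.45 and 2.51 and no peak at day 1. All 3 day 0 libraries listed both, and their summits lay within 38 and 70 bp of each other across libraries. They ranked alike over the day 0 lists, with 70.6% to 79.7% of a library's peaks lower. At the day 0 mean of the +119.4 kb element, the day 1 libraries would hold 14.4, 16.4 and 21.4 fragments, or 15.4, 18.8 and 11.1 after scaling by the median of shared regions, against lowest pileups of 4, 4 and 5 in their lists. For the +101.9 kb element the figures were 13.1, 14.9 and 19.5, or 13.9, 16.9 and 10.01 after that scaling.

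The element at +29.3 kb (chr6:115390254-115390750) was uneven at day 0. It had 1.36, 3.08 and 0.873 FPM in replicates 1, 2 and 3 and no peak at day 1. Replicate 2 stood well above the other two, and the mean was 1.77 ± 1.16 FPM (SD, n = 3). At its day 0 mean, day 1 libraries would hold 8.71, 9.92 and 12.9 fragments, or 8.81, 10.8 and 6.36 after scaling by the median of shared regions. The remaining elements inside the gene were a peak at +21.3 kb in day 0 replicate 1 (0.545 FPM) and one at +50.5 kb in day 1 replicate 1 (1.02 FPM).

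Before the gene, 8 of 9 elements had a peak in 1 or more day 0 libraries, and day 1 had 1 peak in all. The −76.8 kb element (chr6:115284046-115284554), which lies just outside the span of the synapsin gene Syn2, had 3.27, 2.58 and 2.51 FPM at day 0 and no peak at day 1. The −89.0 kb element (chr6:115271894-115272252), inside Syn2, had 2.54, 2.46 and 1.64 at day 0 and no peak at day 1. Between 57.0% and 84.0% of the peaks of a day 0 list were lower than these. The start of another gene lay nearer to both than any Pparg start. It was 32.1 kb from the −76.8 kb element and 19.9 kb from the −89.0 kb element. The −38.0 kb element (chr6:115323066-115323268), inside the lncRNA gene Gm38878, was lower, at 0.817, 0.861 and 1.64, and had no peak at day 1. At its mean the day 1 libraries would hold 5.44, 6.19 and 8.07 fragments, or 6.33, 7.74 and 4.57 after that scaling, near the lowest pileups of their lists. Depth moved with the day at every element. Absence at day 1, here and at the other day 0 only elements, cannot be told apart from depth. Peaks were called against the local background, so the lowest pileup of a list is not the limit at each site. The elements at −91.0, −47.7 and −11.2 kb had peaks in day 0 replicates 1 and 2, those at −92.1 and −4.5 kb in day 0 replicate 3, and that at −70.3 kb in day 1 replicate 1, all between 0.726 and 1.85 FPM.

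Beyond the gene, the +132.4 kb element (chr6:115493216-115494162), 3.19 kb past the end of Pparg, was the widest of the locus at 947 bp. Its day 0 levels were 1.73, 1.35 and 1.20 FPM, and no day 1 library listed it. It is the last element along the locus listed by all 3 day 0 libraries and by no day 1 library. At its mean the day 1 libraries would hold 7.02, 7.99 and 10.4 fragments, or 7.49, 9.16 and 5.41 after that scaling, and the lowest pileup listed in the last library was 5.

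The next elements along the chromosome were the tallest of the locus, and they were tall at day 1. The +150.5 kb element (chr6:115511459-115511880), inside the lncRNA gene Gm36301, had 6.30, 5.18 and 2.46 FPM in day 1 replicates 1, 2 and 3. Day 0 replicate 1 listed it at 0.545 FPM, which is 6 fragments, and replicates 2 and 3 did not list it. The days did not overlap there. At the day 1 mean of 4.65 ± 1.97 (SD, n = 3), day 0 replicates 1, 2 and 3 would hold 51.2, 37.8 and 42.6 fragments. In the day 1 lists 92.8%, 87.8% and 78.0% of peaks were lower, and in day 0 replicate 1 only 1.31%.

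The +158.4 kb element (chr6:115519400-115519739) covered 238 of the 250 bases printed above for Gm36301. It had 5.69 and 4.64 FPM in day 1 replicates 1 and 2, 0.983 in day 0 replicate 3 and no peak elsewhere. The +162.2 kb element (chr6:115523040-115523467), singled out after its values were seen, had 5.08 and 3.93 in day 1 replicates 1 and 2 and no peak in any other library. A day 0 replicate 2 peak of 0.984 at +161.7 kb lay next to it without overlap. Day 1 replicate 3 thus went apart from its group at both elements. At the level of replicates 1 and 2 it would hold 37.7 and 32.9 fragments there, or 17.8 and 15.5 after scaling by the median of shared regions, and its list goes down to 5. At +150.5 kb the same scaling gave 19.8 fragments, and 18 were listed.

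**Figure D2:**
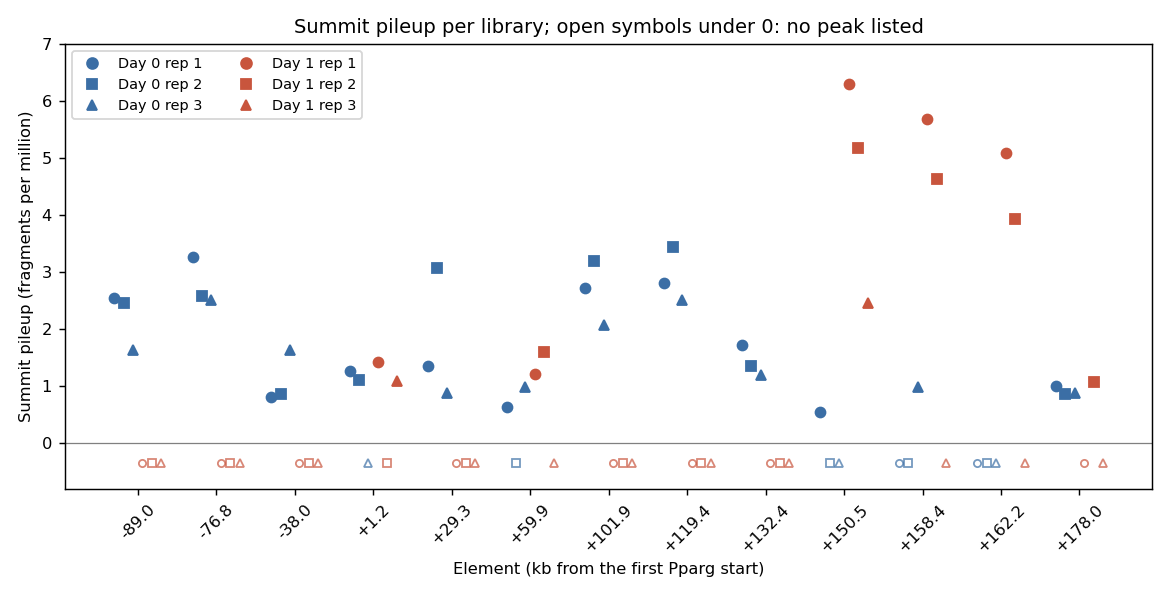
Summit pileup (FPM, vertical axis) in each library for 12 of the 13 elements listed in 3 or more libraries and for the +162.2 kb element, ordered by distance from the first Pparg start; filled symbols are listed peaks, and open symbols under the 0 line mark libraries with no listed peak. The +150.5, +158.4 and +162.2 kb elements reach 3.93 to 6.30 in day 1 replicates 1 and 2, above each day 0 value of the locus.

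Summed over these 3 elements, the day 1 libraries had 17.1, 13.7 and 2.46 FPM and the day 0 libraries 0.545, 0 and 0.983. That was 67.2%, 66.4% and 37.5% of the summed pileup of the locus at day 1 and at most 5.33% at day 0. The stretch was chosen after its values were seen, so this is a description.

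The +178.0 kb element (chr6:115539028-115539359), in the lncRNA gene Gm36355, followed neither pattern. It had 0.999, 0.861 and 0.873 FPM at day 0 and 1.07 in day 1 replicate 2 alone.

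Counted as presence and absence, 7 of the 27 elements (25.9%) were day 0 only, that is, listed by all 3 libraries of day 0 and by none of day 1, against 17.5% of all elements. None was the mirror, a day 1 only element, against 0.607% of all. With 2 or 3 of 3 libraries on a day and none on the other, the counts were 10 for day 0 (30.8% of all elements) and 2 for day 1 (2.01% of all), the latter at +63.6 and +162.2 kb. Day 0 lists were longer by a factor of 2.45 in peaks and libraries deeper by 1.59 in fragments, whose part in these counts was not tested. With every list shortened to the 12556 peaks of lowest q, 11 of the elements were still listed. Of these, 3 were day 0 only (−76.8, +101.9 and +119.4 kb), against 9.11% of all elements in such lists, and 1 was day 1 only (+150.5 kb), against 5.71%.

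Both the number of peaks in the locus and the length of the lists were lower at day 1. The locus held 19, 15 and 13 peaks at day 0 and 8, 7 and 4 at day 1 (means 15.7 ± 3.06 and 6.33 ± 2.08, SD, n = 3 each, exact two-sided permutation p = 0.1, the smallest that 3 libraries against 3 can give). Per 10000 peaks of the library, day 0 had 3.42, 3.57 and 3.32 and day 1 had 3.99, 3.01 and 3.19, and the means differed by less than the replicates did (exact permutation p = 0.9). With only peaks of a −log10 q of at least 5, the difference in peaks per 10000 was −0.63 (exact permutation p = 0.1), against −0.044 with all peaks. The exact permutation p-values of the 3 measures of the whole locus, adjusted together, were 0.30 for peak number, 0.90 per 10000 peaks and 0.60 for summed pileup.

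The summed pileup differed in direction between the parts of the locus. Over the whole locus it was 28.2, 26.2 and 18.4 FPM at day 0 and 25.4, 20.7 and 6.57 at day 1 (exact permutation p = 0.4, n = 3 each), and the ranges overlapped. Before the gene it was 9.72, 9.47 and 7.42 at day 0 against 1.02, 0 and 0 at day 1, with no overlap. Inside the gene, day 0 had 11.3, 10.8 and 6.44 and day 1 had 3.66, 3.03 and 2.05, again with no overlap. Beyond the gene, day 0 had 7.17, 5.91 and 4.59 and day 1 had 20.7, 17.7 and 4.52, where day 1 replicate 3 lay under all day 0 libraries. The exact permutation p was 0.1 before and inside the gene and 0.4 beyond it (adjusted 0.15, 0.15 and 0.40 over these 3, n = 3 each). The 3 partial sums were added after seeing the data, and elements with no listed peak add 0, so their p-values are no independent support. Without day 1 replicate 3 the difference beyond the gene was 13.3 FPM, against 8.42 with it and 5.20 without day 1 replicate 1. Scaled by the median of shared regions, the days no longer overlapped beyond the gene (difference 8.35, exact permutation p = 0.1).

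**Figure D3:**
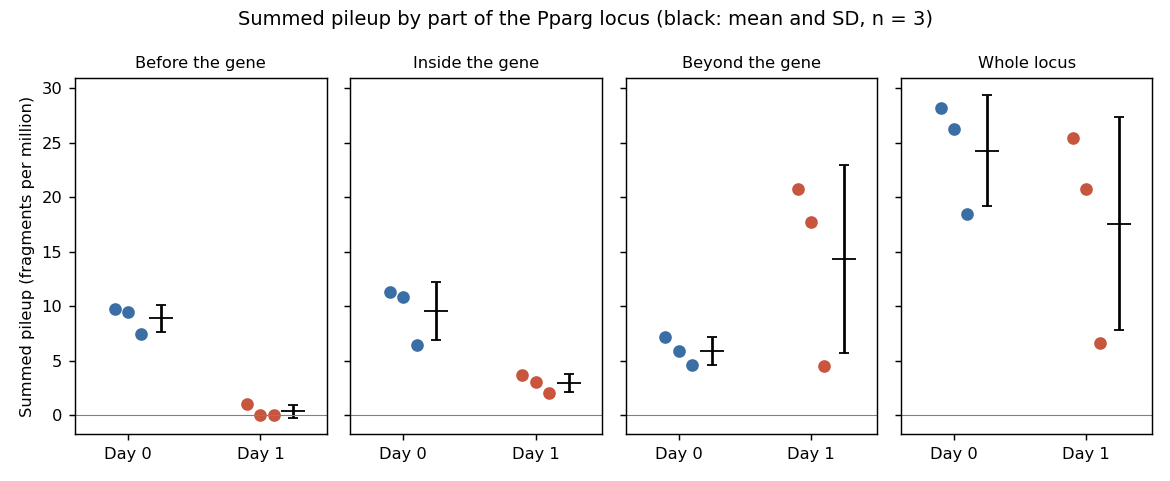
Summed summit pileup (FPM, vertical axis) of the elements before, inside and beyond the Pparg gene and over the whole locus, 1 point per library, with the mean and SD (n = 3) in black beside each group. Day 0 lies above day 1 before and inside the gene, while beyond the gene 2 day 1 libraries lie at 20.7 and 17.7 and the third at 4.52.

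These sums move with how much was listed in each library. The peaks covered 6340, 4548 and 3857 bp at day 0 and 2119, 1809 and 861 bp at day 1. The mean pileup per listed element was 1.48, 1.87 and 1.42 FPM at day 0 and 3.18, 2.96 and 1.64 at day 1. Beyond the gene alone the covered length was 1892, 1388 and 1525 bp at day 0 and 1308, 1433 and 533 bp at day 1, with mean pileups of 1.43, 1.48 and 1.146 and of 5.18, 3.53 and 2.26 FPM. The covered lengths overlapped there, and each day 1 mean pileup lay above each day 0 mean.

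An estimate of size with its error was made for the 13 elements listed in 3 or more libraries, with each missing value set to the lowest pileup of that library's list. Imputed values carry no spread of their own, so these p-values are too small, and the folds depend on the imputed level. Over all 33265 such elements the limma fit called 2.94% higher and 36.3% lower at day 1, with a median log2 difference of −0.59. In the locus 2 of 13 were called higher, 5 lower and 6 neither, with a median of −0.51. The 5 lower elements were listed at day 0 only and entered the fit through day 0 alone, so the filter and the imputed day 1 values set their direction, and their count is no result about the locus. The same limit holds for 1 of the 2 higher elements, +150.5 kb, which met the filter through day 1 alone and was imputed in 2 day 0 libraries. With median scaling 2 were higher and 4 lower, against 5.63% and 24.6% of all.

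The +150.5 kb element met the minimum of 3 libraries through day 1 alone, and its values in 2 day 0 libraries were imputed. Its log2 difference was 2.93 ± 0.39 (SE, limma fit) and ran from 2.65 to 3.33 without each single library. These values are given as a description with no test. The +158.4 kb element was higher by 2.01 ± 0.68 (limma, adjusted p = 0.037, imputed in 3 libraries), and this call was lost without day 0 replicate 1, day 0 replicate 2 or day 1 replicate 1 (adjusted p = 0.117, 0.0873 and 0.156). For the elements listed at day 0 only, the distance from the imputed level is given as a description with no test. It was −1.98 on the log2 scale at +119.4 kb, −1.91 at −76.8 kb, −1.84 at +101.9 kb, −1.56 at −89.0 kb, −1.07 at +29.3 kb, −0.94 at +132.4 kb and −0.51 at −38.0 kb. The +59.9 kb element before the third start, at 0.60 ± 0.33, did not pass (limma, adjusted p = 0.190), and passed without day 1 replicate 3 (0.94, adjusted p = 0.0398).

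**Figure D4:**
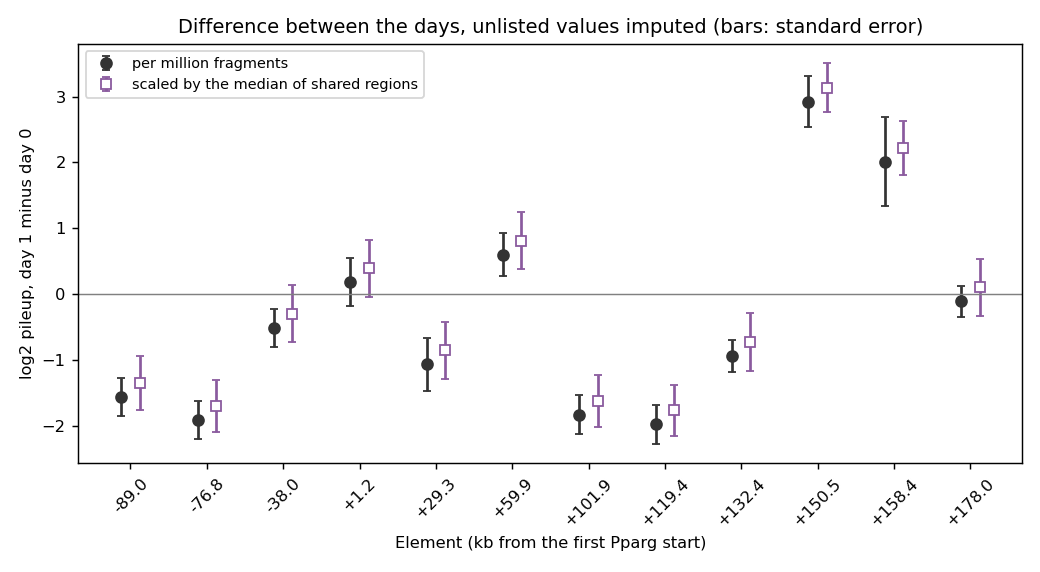
log2 difference in summit pileup, day 1 minus day 0 (vertical axis, bars are standard errors of the limma fit), for 12 of the 13 elements listed in 3 or more libraries, with missing values imputed; filled circles are FPM values and open squares are scaled by the median of shared regions. The +150.5 and +158.4 kb elements lie at 2.93 and 2.01, and +101.9 and +119.4 kb, whose day 1 values are all imputed, at −1.84 and −1.98.

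Among the 21887 coding genes with windows drawn the same way, the Pparg window was rich in elements. Its 27 elements compare with a median of 10, and 97.1% of windows had fewer. Its 7 day 0 only elements compare with a median of 1. Windows of long genes are larger and those of neighbours overlap, so these shares are descriptions. Summed over every peak rather than the highest peak of each element, which makes day 0 replicate 2 27.2 FPM, the day 1 mean was 0.714 of the day 0 mean, against a median ratio of 0.597 over 17758 windows with peaks in each day 0 library. Among the genes whose 6 library sums were closest to those of Pparg, by Euclidean distance on a log2 scale with 1 added, were Glg1 (0.226), Lefty2 (0.239), Cyth2 (0.251) and Znrf3 (0.251). Of these windows Glg1, Lefty2 and Cyth2 held 3 day 0 only elements each and Znrf3 held 2, and none held a day 1 only element.

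Genes that act before, with and after PPARγ were read from 3 lists. Of 24 known upstream regulators, 22 had a region assigned to them within 100 kb, and 47 of their 276 regions (17.0%) were day 0 only. Of 20 partners and coregulators, 19 had a region, and 30 of 188 regions (16.0%) were day 0 only. Of 27 target genes found in the gene table, 22 had a region, and 16 of 115 (13.9%) were day 0 only. These shares are near the 17.5% of all elements. Counted by gene, 16 of 22, 14 of 19 and 10 of 22 had a day 0 only region, against 38.2% of all coding genes with a region, but these genes had many regions each, on average 12.5, 9.89 and 5.23.

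Day 0 only regions were most numerous at Ebf1 (10 of its 37 regions), an early B cell factor of adipocyte commitment. Nfia (6 of 32) and Zfp521 (6 of 24) came next. Among partners, Rxra, a retinoid X receptor gene, had 5 of 26 and the coactivator gene Ppargc1b had 4 of 14. Genes with more regions can hold more of them, and 17.5% of all elements were day 0 only, so these counts single out no gene. Day 1 only regions lay near 3 upstream regulators, Zfp423, Stat5b and Runx2, near 1 partner, Ncoa2, and near 4 targets, among them Acsl1, Cidec and Scd1, against 2.39% of all coding genes with a region. By region these were 3 of 276 (1.09%), 1 of 188 (0.53%) and 5 of 115 (4.35%), against 0.607% of all elements. The list genes had on average 12.5, 9.89 and 5.23 regions each. Of the genes just named, Zfp423 (3), Stat5b and Acsl1 (2 each) and Runx2 and Ncoa2 (1 each) also had day 0 only regions, and Cidec and Scd1 had none.

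Over all 9136 regions listed in all 6 libraries, 30 rose (0.328%) and 48 fell (0.525%) by limma, and with median scaling 706 and 629. None passed without day 0 replicate 1 or without day 0 replicate 2, where 372 and 386 had an unadjusted limma p under 0.05. Of these regions, 0 of 31 passed the limma test near upstream regulators, 0 of 17 near partners and 1 of 18 near targets. At an unadjusted limma p under 0.05 there were 4 of 31, 2 of 17 and 4 of 18, against 689 of all 9136 regions. The median log2 differences were −0.11, −0.22 and 0.23, against −0.15 over all regions. Without day 0 replicate 1, 2 or 3 or day 1 replicate 1, no region of the 3 lists passed.

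Peaks within 1 kb of a gene end told some of these genes apart. Cidec, which encodes a lipid droplet protein and is a known PPARγ target, had such a peak in 3 of 3 day 1 lists and 0 of 3 day 0 lists, a pattern of 0.0411% of coding genes (9 of 21887). Plin1, the gene of the lipid droplet coat protein perilipin 1, had it in 2 day 1 lists and no day 0 list. Ppargc1a and Ppargc1b, the genes of PPARγ coactivators 1α and 1β, had it in 3 of 3 day 0 lists and no day 1 list, a pattern of 2.33% of coding genes. These 4 genes were singled out after their values were seen.

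Markers of the labelled cell type were listed in part. Of 9 preadipocyte and stromal genes, 5, 3 and 3 had a gene-end peak in the day 0 lists and 2, 2 and 1 at day 1. Col1a1 and Pdgfrb had one in 5 of 6 lists, and Pdgfra, Cd34, Dlk1 and Thy1 in none. Of 7 endothelial genes, 2, 2 and 1 had one at day 0 and 0, 2 and 0 at day 1 (Kdr and Tal1), and Pecam1, Cdh5, Vwf, Tek and Erg had none. Of 7 immune genes, 2, 2 and 2 had one at day 0 and 1, 1 and 0 at day 1 (Cd68 and Spi1), and Ptprc, Adgre1, Cd3e, Cd79a and Itgam had none. Of 6 skeletal muscle genes, 2, 1 and 0 had one at day 0 and none did at day 1. Day 1 lists were shorter, and no share of all coding genes is set beside these counts. They therefore do not show the presence or loss of a cell type. Whether other cells take part in the Pparg pattern was not tested.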

How the data were processed

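The 6 peak lists of brown pre-adipocytes, 3 per day, were deposited as MACS2 2.2.7.1 tables, 1 library per list. Per the file headers, peaks were called on whole paired-end fragments without a control, at a q cutoff of 0.05, duplicates limited to 1 and the background read from 10000 bp around. The pileup column is a signal deposited as a whole number of fragments over the summit, not scaled to depth, per the file headers. The authors' −log10 p and −log10 q set it against the local background, and the authors' fold enrichment is the ratio to that background. The submitters' processing notes name mm10, HOMER 4.11, DiffBind 3.8.4, Bowtie2 2.4.4, Trim Galore 0.6.7, deepTools 3.5.1 and SAMtools 1.15.1 without their roles.

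Only the autosomes and the sex chromosomes were kept. Pileup was divided by the fragments of the header and multiplied by 1000000 (FPM). Regions listed in all 6 libraries were compared on the log2 scale, with no pseudocount, by limma 3.58.1 with a mean-variance trend in R 4.3.3, with Benjamini-Hochberg adjustment over all regions and a threshold of 0.05. Single values were set against each other by an exact permutation test over libraries, two-sided. The limma script and the region classes were tested on simulated data. The planned test per element covered only 1 element of the locus, so the fit with imputed values, planned as an alternative, is also given. Regions were assigned to the nearest coding gene within 100 kb. Symbols came from the RefSeq table of GRCm38.p6; of the list genes, Gyk found no match. By rule, elements listed in 3 or more libraries are given in every library, here 12 of 13, and genes are named by closeness of pattern, by position in the window and, per list, by the most day 0 only or day 1 only regions or a passed test. Members and lists were chosen with earlier results of these data known. Alternatives are given in the closing section. Some elements and genes are counted in the totals but not reported here.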

Additional observations from a re-analysis of the deposited data

How the results depend on the processing

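Peak number and the sums before, inside and beyond the gene kept their direction in each setting run for them, among these window size (not for the 3 partial sums), a −log10 q of at least 5, equal lists, median scaling and each library left out. In equal lists the difference in peak number shrank to −0.33 (exact permutation p = 1.0) and the sum before the gene to −3.33, against −9.33 and −8.53. Leaving out each library gave differences of −10.7 to −7.67 in peaks, −10.6 to −1.22 in summed pileup (FPM) and −0.34 to 0.149 in peaks per 10000, the last without a fixed direction. Peaks per 10000 also turned to 0.173 with 50 kb on either side and to 0.178 in the gene span, and summed pileup to 2.78 in equal lists. At −log10 q of at least 5 the difference in peaks per 10000 was −0.63 (exact permutation p = 0.1). Day 0 only elements were 3 in the gene span, 3 in equal lists and 7 to 10 without each library. Day 1 only elements were 1 in equal lists, 1 at −log10 q of at least 5, 2 with 2 of 3 libraries and 0 to 1 without each library.

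Regions that passed in all 6 libraries, 78 in all, were 1335 with median scaling (706 higher and 629 lower, against 30 and 48), 11 at −log10 q of at least 5, 159 without the trend, 13039 with imputed values and 0 to 842 without each library. The count of 0 arose without day 0 replicate 1 or 2, where 372 and 386 had an unadjusted limma p under 0.05, and 842 without day 1 replicate 3. The median log2 difference over these regions was −0.15, and 0.06 with median scaling. Of the regions that passed, those near the 3 pathway lists numbered 1 of 78, and 21 of 1335 with median scaling. They were 115 of 13039 with imputed values, 0 of 11 at −log10 q of at least 5 and 0 to 13 without each library. Both fits without imputed values tested 31, 17 and 18 regions near the lists among 9136. The imputed fit took in 33265 regions, so its count is of another set. With the replicate block 1026 regions passed, 13 of them near the pathway lists, and the locus differences had exact sign-flip p of 0.25 (peaks), 0.75 (per 10000) and 0.25 (summed pileup), where 0.25 is the smallest that 3 pairs can give, so none could pass. The labels share only a number. Across the 9136 regions, the deviations of same-numbered libraries had correlations of −0.036, 0.054 and 0.0081, which do not see a shift of a whole library. Replicate 3 had the lowest median over shared regions on both days (2.62 and 1.78 FPM). Whether same-numbered libraries belong together was thus not settled.

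With imputed values 2 small differences changed sign: +1.2 kb ran from −0.20 to 0.45 without each library, and +178.0 kb from −0.29 to 0.037, and was 0.10 with median scaling. The causes were not tested. Depth limits what absence shows: elements of under 1 FPM lie near the lowest listed pileup of each library. The median scaling and left-out libraries of the imputed fit and the 3 partial sums were added after seeing the data.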
